A study of Homo sapiens with 3 samples.

Results

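The apolipoprotein L (APOL) family is a small group of genes that lie close together on human chromosome 22. Its founding member, APOL1, circulates on high-density lipoprotein particles and kills African trypanosomes by opening ion channels in their membranes. The other members lack a secretion signal and stay inside the cell, where they act on membranes, and several are known to be switched on by interferons and other inflammatory cytokines in endothelial and epithelial cells.

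The 5 genes described here, APOL1, APOL2, APOL3, APOL4 and APOL6, were found in the deposited gene table by their symbols, among 61550 genes. They had been chosen by their low values in the knockout libraries relative to wild type, so every level and change given for them below is a description and was not tested. All 5 were among the 15483 genes that passed the filter on low counts, and each had at least 82 counts in every library. The remaining family member listed in the table, APOL5, had 0 counts in all 3 libraries, which allows at most 0.127 to 0.135 CPM (counts scaled to library size) with 3 counts taken as the limit that a count of 0 allows.

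RNA-seq was performed on HK1, an established nasopharyngeal carcinoma cell line, after incubation of the tumor cells with activated CD8+ T cells. There was 1 library of wild-type (WT) cells and 2 libraries of FLI1-knockout (KO) cells, made with the guides sgFLI1-1 and sgFLI1-2. All 3 came from cells incubated with T cells. The paper reports that CD8+ T cells released more IFN-γ when cocultured with FLI1-deficient tumor cells. The cytokine that each culture received is not given, so its effect cannot be told apart from that of the genotype. FLI1 belongs to the ETS family of transcription factors, and the comparison asked which tumor transcripts differed with the genotype. The sources used here do not say whether a KO line was 1 clone or whether the libraries came from separate cultures, so any spread between libraries may be technical.

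Each library held between 22172158 and 23904587 gene counts. FLI1 mRNA was counted 125 times in WT, against 11 times for guide sgFLI1-1 and 109 times for guide sgFLI1-2. These are 8.24% and 85.8% of WT after scaling, and FLI1 did not pass the test (edgeR log2 fold change -1.09, SE 0.84, adjusted p = 0.515). The mRNA level thus bore out the label of the first KO library only, so "guide sgFLI1-1" and "guide sgFLI1-2" stand below for the libraries so labelled. Where 3 values follow each other they are for WT, guide sgFLI1-1 and guide sgFLI1-2. An edit that shifts the reading frame need not lower the mRNA. Epithelial keratin genes were abundant, with KRT8 at 936, 1020 and 1029 FPKM and KRT18 at 628, 748 and 797 FPKM. The epithelial adhesion gene EPCAM had 183, 160 and 93 counts and CDH1, the gene of E-cadherin, had 14, 40 and 23. Of the basal squamous markers, TP63 had 5, 0 and 0 counts, KRT5 had 8, 0 and 7, and KRT14 had 16, 12 and 44, all low beside KRT8. The keratin gene KRT19 was called lower (330, 34 and 86 counts, edgeR adjusted p = 0.00816), but not without a filter on low counts, where its adjusted p was the highest of the alternatives (0.00159 to 0.31). The 13 T cell markers summed to 11, 6 and 15 counts, and CD3D, CD3E, CD8A and CD8B were at 0 in every library. IFNG had 0 counts throughout. As in any bulk sample, fewer cells of a type and less RNA per cell cannot be told apart.

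All 5 APOL genes stood at a fraction of their WT level in both KO libraries. Summed over the family, WT held 12875 counts and the KO libraries, sgFLI1-1 first, held 2164 and 2291. After scaling, the family total was 6.35-fold lower than WT with the first guide and 5.71-fold lower with the second. In FPKM, a level scaled to both transcript length and library depth, the sums were 140, 22.6 and 25.5. Each member was at least 2-fold lower than WT in both KO libraries, a size that 6.21% of all tested genes also reached. APOL1, APOL3, APOL4 and APOL6 were at least 4-fold lower in both, a size reached by 2% of all tested genes, and APOL2, at 3.99-fold in the library labelled sgFLI1-2, was the 1 member outside. Nothing is read from these shares, since the members were chosen by this contrast.

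APOL2 had the highest level in every library. It encodes a protein of the endoplasmic reticulum that has been reported to protect bronchial epithelial cells from the toxicity of IFN-γ. APOL2 (ENSG00000128335, chromosome 22, 36226209 to 36239954, minus strand, GRCh38) was counted 2799 times in WT, 605 times with guide sgFLI1-1 and 713 times with guide sgFLI1-2. Its levels were 50, 9.86 and 12.1 FPKM. It was 4.94-fold and 3.99-fold lower than WT by CPM, the least of the 5 members. In WT its FPKM exceeded that of 90.5% of tested genes, and in the KO libraries that of 63.1% and 67.2%.

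APOL1 came next. APOL1 (ENSG00000100342, chromosome 22, 36253071 to 36267530, plus strand) was counted 2876, 478 and 481 times in the WT, sgFLI1-1 and sgFLI1-2 libraries. Its levels were 43.0, 6.49 and 6.94 FPKM. The KO values almost coincided, at 15.6% and 16.5% of the WT CPM, or 6.43-fold and 6.08-fold lower. It moved from above 88.8% of tested genes in WT to above 54.9% and 55.6% in the KO libraries.

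APOL6 had the most counts and only the third level per length. Its product promotes cell death when overexpressed in cultured cells. APOL6 (ENSG00000221963, chromosome 22, 35648446 to 35668404, plus strand) was counted 5526, 890 and 921 times. Its levels were 22.3, 3.37 and 3.73 FPKM, which is 6.63-fold and 6.1-fold lower by CPM. Its single transcript in GENCODE v44 covers 10065 exonic bases, against 3417 to 5905 for the other 4 members, which is why counts and FPKM rank it differently.

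APOL4 kept the smallest share of its WT level. APOL4 (ENSG00000100336, chromosome 22, 36189124 to 36204840, minus strand) was counted 1044, 84 and 82 times. Its levels were 13.3, 1.04 and 1.08 FPKM. Both KO libraries thus lay far below WT, at 7.53% and 7.73% of its CPM, which is 13.3-fold and 12.9-fold lower. Little is established about the function of this member.

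APOL3 had the fewest counts in WT. Its product has been described as a detergent-like protein that breaks open the membranes of cytosolic bacteria together with the guanylate-binding protein GBP1, and as a regulator of lipid kinase activity at the Golgi. APOL3 (ENSG00000128284, chromosome 22, 36140329 to 36166177, minus strand) was counted 630, 107 and 94 times. Its levels were 11.7, 1.79 and 1.56 FPKM, 6.29-fold and 6.81-fold lower by CPM. It was the one member whose level by CPM was lower with guide sgFLI1-2 than with guide sgFLI1-1.

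**Figure D1:**
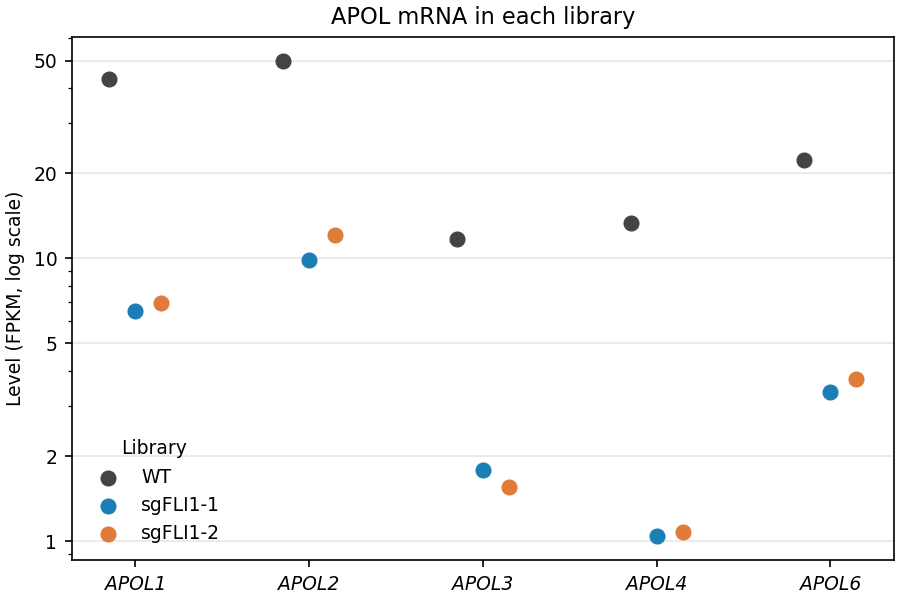
Level of each APOL gene in FPKM (log axis) in the WT library and in both KO libraries, 1 point per library. For all 5 genes the WT point lies far above both KO points, which lie close to each other. APOL4 starts slightly above APOL3 in WT and ends below it in both KO libraries.

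In descending order the WT levels ran from APOL2 and APOL1 to APOL6, APOL4 and APOL3. WT had 1 library, so no spread can be put on this order. In the KO libraries the levels were 11 ± 1.62 FPKM for APOL2 (SD, n = 2), 6.71 ± 0.32 for APOL1, 3.55 ± 0.25 for APOL6, 1.68 ± 0.161 for APOL3 and 1.06 ± 0.031 for APOL4. No neighbours in this order overlapped between the KO libraries. The last places were exchanged relative to WT: the ratio of APOL3 to APOL4 in FPKM was 0.881 for WT and 1.73 and 1.45 for guides sgFLI1-1 and sgFLI1-2.

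The make-up of the family's summed FPKM differed between WT and KO libraries along with its total. APOL2 supplied 35.7% of the summed APOL FPKM of WT, and 43.7% and 47.7% of that of the KO libraries. The share of APOL4 was 9.46%, 4.61% and 4.25%. Shares of APOL1 (30.6%, 28.8% and 27.3%) and APOL6 (15.9%, 15% and 14.6%) moved by a few points at most. APOL3 held 8.34%, 7.95% and 6.15%. By counts, which are not corrected for length, APOL6 held the largest share, at 42.9%, 41.1% and 40.2%, beside 22.3%, 22.1% and 21% for APOL1 and 21.7%, 28% and 31.1% for APOL2.

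**Figure D2:**
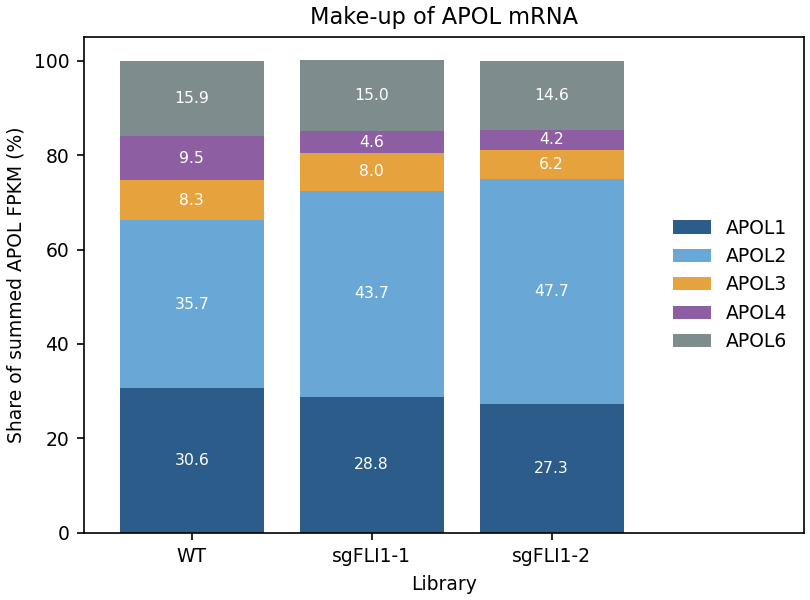
Share of each APOL gene in the summed APOL FPKM of each library, in percent, as stacked bars. APOL1 and APOL2 together make up most of the summed FPKM in every library. The APOL2 part widens from 35.7% in WT to 47.7% in the library labelled sgFLI1-2, and the APOL4 part narrows from 9.46% to 4.25%.

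The members differed in the size of their change. On log2 CPM relative to WT, averaged over both KO libraries, APOL4 stood at -3.71 (SD 0.0257, n = 2). APOL3 at -2.71 (SD 0.0819), APOL6 at -2.67 (SD 0.0852) and APOL1 at -2.64 (SD 0.0566) formed a middle group whose ranges over the KO libraries overlapped. APOL2 stood apart at -2.15 (SD 0.218), and its range overlapped with that of no other member. The 95% exact binomial interval of the change in the library labelled sgFLI1-1 ran from -4.07 to -3.41 for APOL4 and from -2.43 to -2.18 for APOL2. With the other guide the intervals were -4.04 to -3.37 and -2.12 to -1.88. These intervals cover counting error only and include no variation between cultures. The median over the 5 members was -2.68 and -2.61 in the 2 KO libraries, beside -0.02 and -0.01 over all tested genes.

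**Figure D3:**
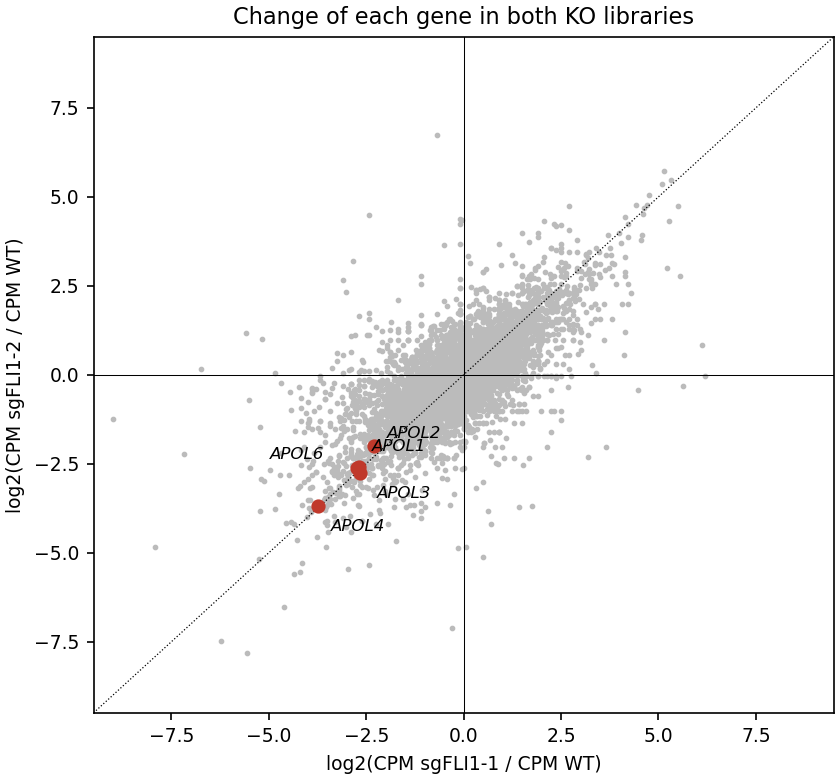
Change of each gene from WT in the library labelled sgFLI1-1 (horizontal axis) and in the library labelled sgFLI1-2 (vertical axis), as log2 ratio of CPM, for 15217 tested genes with counts in every library (grey) and the 5 APOL genes (red). The dotted line marks equal change. The APOL genes lie on or near this line, with APOL4 lowest (-3.73 and -3.69) and APOL2 highest (4.94-fold and 3.99-fold lower).

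The KO libraries were also set against each other, as a description, with 1 library per guide and intervals that again cover counting error only. The log2 CPM ratio of guide sgFLI1-2 to guide sgFLI1-1 was 0.08 for APOL1 (-0.11 to 0.27), 0.04 for APOL4 (-0.42 to 0.49), 0.12 for APOL6 (-0.01 to 0.26) and -0.12 for APOL3 (-0.53 to 0.30), each interval holding 0. For APOL2 it was 0.31 (0.15 to 0.47), beyond counting error. Among 11221 genes with at least 50 counts in both KO libraries, 24.6% differed between the guides by as much as APOL2, and 63% to 88.2% by as much as each of the other 4. FLI1 mRNA differed far more between these libraries, at 11 and 109 counts, than any APOL gene did. Whether APOL levels followed FLI1 was not tested, and FLI1 protein was not measured in these libraries.

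Counts and FPKM gave nearly the same changes. By FPKM, APOL1 was 6.63-fold and 6.19-fold lower, APOL2 5.07-fold and 4.12-fold, APOL3 6.52-fold and 7.47-fold, APOL4 12.8-fold and 12.3-fold and APOL6 6.6-fold and 5.98-fold lower, the first guide given first. The transcript length implied by the ratio of both measures was stable for APOL1 (3.02, 3.08 and 3.09 kb in WT and the KO libraries) and APOL6 (11.2, 11 and 11 kb). It varied most for APOL3, at 2.43, 2.5 and 2.68 kb, the gene with 22 annotated transcripts in GENCODE v44.

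The members are paralogs, and reads from near-identical stretches could be credited to the wrong gene. Words of 50 bases from the GENCODE v44 transcripts were therefore compared across the family. Of those of APOL1, 0.381% also occurred in another APOL gene, of APOL2 0.139% and of APOL3 0.138%. APOL4 and APOL6 shared none. In the same annotation no other gene overlapped any of the 5 members on either strand.

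The family occupies separate places within a stretch of chromosome 22. APOL3, APOL4, APOL2 and APOL1 follow each other within 127 kb. APOL6 lies 472 kb before APOL3, with the undetected APOL5 and the splicing factor gene RBFOX2 between them. Whether the surrounding genes were lower as well was tested, since these genes had not been used to choose the members. Of 80 other genes within 1 Mb of an APOL gene, 20 were tested, and 4 of these had under 30 counts in each library. With edgeR's quasi-likelihood test, at an adjusted p under 0.05 and at least a 2-fold change, 1 of the 20 was called lower and none higher. Over all tested genes 2.95% were called lower and 1.83% higher. At an unadjusted p under 0.05, 3 neighbours were lower and 1 higher, and DESeq2 also called 1 lower and none higher. The share of all tested genes at that unadjusted p is not given here or below, so nothing is read from counts at it.

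RBFOX2, the tested gene between the APOL6 and APOL3 sides, had 1779, 1383 and 1560 counts, and its change did not pass the test (log2 fold change -0.33, SE 0.18, adjusted p = 0.338). MYH9, which encodes the heavy chain of nonmuscle myosin IIA and lies 13.8 kb beyond APOL1, had 16174, 9396 and 12496 counts. It did not pass either (-0.62, SE 0.19, adjusted p = 0.095). On the other side of APOL6 the nearest tested gene was the myoglobin gene MB, with 5, 12 and 9 counts (adjusted p = 0.701). The called gene was C1QTNF6, a secreted protein gene 913 kb from APOL1, with 1370, 690 and 642 counts (-1.10, SE 0.18, adjusted p = 0.00362). Its adjusted p ranged from 0.00101 to 0.129 over the alternatives, the highest without a filter on low counts, where it was not called. MPST, a sulfurtransferase gene 752 kb away that was singled out after its values were seen, differed by less than 2-fold (0.88, SE 0.22, adjusted p = 0.0372). Its adjusted p ranged from 0.0126 to 0.36 over the alternatives and missed the threshold with a minimum of 50 counts (0.0545) and without a filter.

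Over all 402 other tested genes of chromosome 22, neighbours included, the median log2 change was -0.09 for guide sgFLI1-1 and -0.07 for guide sgFLI1-2. Of these genes 14 were called lower, or 3.48%, and 3 higher.

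**Figure D4:**
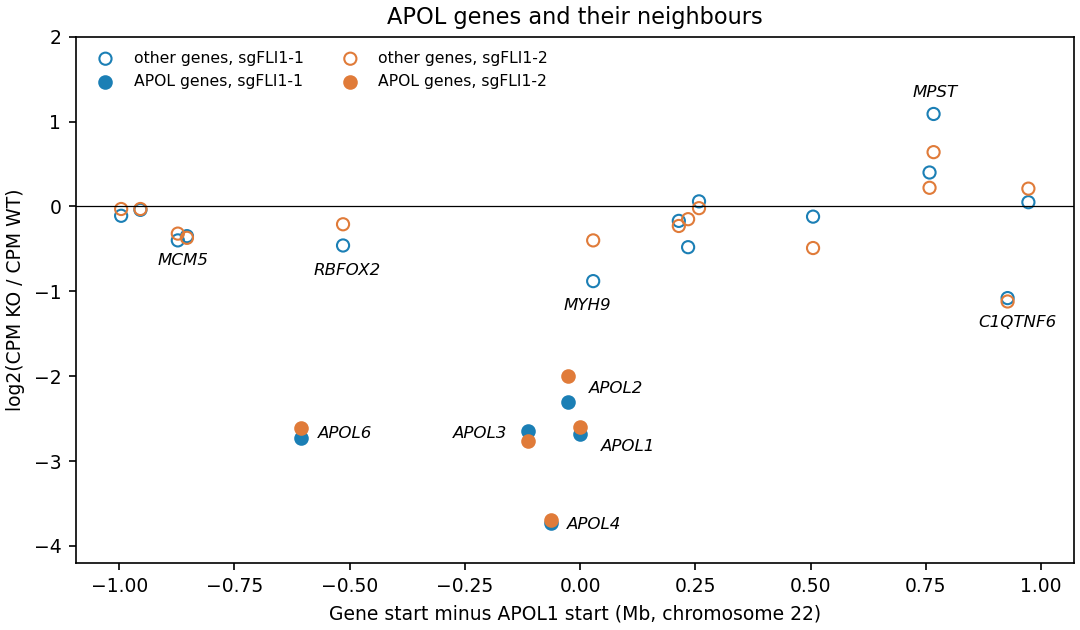
Change from WT (log2 ratio of CPM, each KO library in its own colour) against the distance of the gene start from that of APOL1 along chromosome 22, in Mb. Filled points are the APOL genes, open points the 14 other tested genes within 1 Mb that had at least 100 counts in WT. The APOL genes lie from 3.99-fold to 13.3-fold below WT, whereas RBFOX2 and MYH9, which flank the APOL3 to APOL1 cluster, lie between -0.88 and -0.21.

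IFN-γ binds a receptor of 2 chains, IFNGR1 and IFNGR2, which signals through the kinases JAK1 and JAK2, and IRF1 is among the transcription factors it induces. The gene lists here and below were chosen with earlier results of these data known, so their counts and p-values are a description. Of 16 tested genes of this core, edgeR called 10 lower and none higher, beside 2.95% and 1.83% of all tested genes. At an unadjusted p under 0.05, 2 were higher, and DESeq2 called none higher. IRF1 had 25965, 3520 and 3655 counts (log2 fold change -2.91, SE 0.15, adjusted p = 1.86e-06). The median of the list was -1.66 and -1.28 in the 2 KO libraries. IFNGR1 (0.64, adjusted p = 0.11) and IFNGR2 (0.47, adjusted p = 0.168) did not pass the test, nor did JAK1 (0.23, adjusted p = 0.539). JAK2 was called lower (604, 284 and 318 counts, -1.06, SE 0.22, adjusted p = 0.0141), but not without a filter on low counts (0.243). Beside IRF1, the called genes with the largest changes were CIITA (-3.46, SE 0.17), SOCS1 (782, 114 and 90 counts, adjusted p = 3.03e-05) and IRF9 (-2.93, SE 0.41). They encode the transactivator of MHC class II, a feedback inhibitor and an interferon regulatory factor. Without a filter on low counts, the edgeR adjusted p was 0.0279 for IRF1 and CIITA, 0.0586 for SOCS1 and 0.137 for IRF9.

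The list of cytosolic host defence holds GBP1, with which APOL3 acts, and related genes. Of 8 tested genes edgeR called 7 lower and none higher, and DESeq2 also called 7 lower and none higher. This list, too, was chosen with earlier results known, and over all tested genes edgeR called 2.95% lower. At an unadjusted p under 0.05, 8 were lower and none higher. GBP1 had 37420, 4337 and 4207 counts (log2 fold change -3.19, SE 0.14, adjusted p = 1.17e-06), and similar changes were found for GBP5 (-3.58, SE 0.17), GBP4 (-3.31, SE 0.18) and GBP2 (-3.22, SE 0.17). The GBP genes are close paralogs, so reads may be divided among them with error. GSDMD, which forms pores in pyroptosis, reached an adjusted p of 0.0439 (0.0346 to 0.303 over the alternatives) with less than a 2-fold change (-0.85, SE 0.22). Without a filter on low counts, edgeR called 3 genes of the IFN-γ core and 5 of the host defence list.

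APOL genes are also known to be induced through TNF and NF-κB, and no gene of this core was called. These are mRNA levels of its components, and the activity of the route was not tested. None of 15 tested genes passed by edgeR or DESeq2, and at an unadjusted p under 0.05, 2 were lower and 1 higher. Over all tested genes edgeR called 2.95% lower and 1.83% higher. At these shares a list of 15 may well hold no called gene, so nothing is read from its absence. The list median was -0.09 and -0.03 in the KO libraries. The receptor gene TNFRSF1A had 6133, 6725 and 4773 counts (log2 fold change -0.16, SE 0.20) and RELA, an NF-κB subunit gene, had 2487, 1781 and 1985 (-0.46, SE 0.18, adjusted p = 0.175).

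Neither partners of APOL proteins nor other apolipoproteins were called. Both lists are short, and edgeR called only 2.95% of all tested genes lower and 1.83% higher. Nothing is therefore read from the lack of calls. Among 7 genes of proteins reported to bind or work with APOL1 or APOL3, edgeR and DESeq2 called none. At an unadjusted p under 0.05, 3 were lower. MYH9, described above as a neighbour of APOL1, was among these, so it enters both counts. NCS1, a calcium sensor of the Golgi, had 4355, 3029 and 3356 counts (-0.51, SE 0.18, adjusted p = 0.129), and VAMP8, a protein of vesicle fusion, had 483, 327 and 321 (-0.64, SE 0.21, adjusted p = 0.118). Of 18 other apolipoprotein and related genes 6 could be tested, of which edgeR and DESeq2 called none, with 1 higher at an unadjusted p under 0.05. CLU, which encodes clusterin, had 4302, 7941 and 5946 counts and was not called (0.63, SE 0.19, edgeR adjusted p = 0.0875). With DESeq2 its adjusted p was 0.0433, with less than a 2-fold change, and over all alternatives it ranged from 0.0433 to 0.419. APOE had 7, 49 and 8 counts (adjusted p = 0.357), and the plasma lipoprotein genes APOA1 and APOB had 0 in every library.

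**Figure D5:**
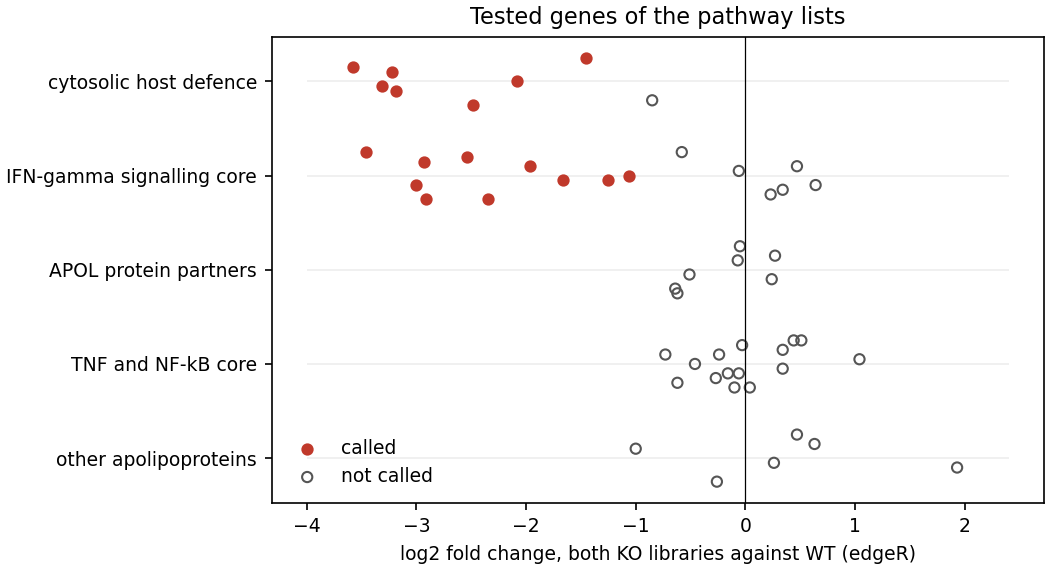
edgeR log2 fold change of both KO libraries against WT for each tested gene of 5 gene lists, 1 point per gene, spread vertically within a list for visibility. Filled points were called (adjusted p under 0.05 and at least a 2-fold change). Called genes are found in the host defence and IFN-γ lists, between -3.58 and -1.06, and none in the other 3 lists. Over all tested genes 2.95% were called lower and 1.83% higher, so nothing is read from this absence.

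The genes most like the family in their pattern were sought among 7597 other protein-coding genes with at least 5 FPKM in WT. Likeness was the distance of a gene's pair of log2 CPM changes from the pair of APOL medians, so that it rests on 3 libraries. The nearest was PARP9, an interferon-induced gene of the ADP-ribosyltransferase family, at a distance of 0.0502 (5147, 827 and 865 counts). APOBEC3G, an antiviral cytidine deaminase gene, with close paralogs nearby, followed at 0.0963 (372, 62 and 58 counts), then ADAP1 at 0.123 (1332, 237 and 211 counts), MDGA1 at 0.135 (1031, 167 and 157 counts) and IDO1, which opens the tryptophan ring, at 0.137 (21493, 3389 and 3310 counts). In all, 22 genes lay within 0.5.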

How the data were processed

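Poly-A RNA-seq of 3 HK1 libraries was analysed, grouped by the genotype label. Per the authors' methods, fastp (0.23.2) removed adapters, HISAT2 (2.0.4) mapped the reads to GRCh38 and StringTie (1.3.4d) assembled transcripts. They deposited whole-number counts per gene, not normalized, and FPKM. Counting tool and strand setting: not given in the sources used here. Columns KO1 and KO2 of the table were matched to sgFLI1-1 and sgFLI1-2 by number alone. A swap would exchange the values of both guides. The 6 APOL genes had the same coordinates in GENCODE v44. The table's 2 empty lines and the APOL promoter windows were not analysed here.

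The members and gene lists were chosen with earlier results of these data known. Named were all members, called or adjoining genes within 1 Mb, up to 4 called genes per list by size of change, IRF1, the receptor chains, the 5 genes nearest in pattern, and a further gene that is not reported here. Further genes were named for their function after their values were seen.

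Other genes were tested with edgeR (4.0.16, R 4.3.3; glmQLFit and glmQLFTest) after TMM scaling and filterByExpr (minimum count 10), both KO libraries against WT, two-sided, with Benjamini-Hochberg adjustment over 15483 genes. The fit had 1 residual and 9.56 prior degrees of freedom, so p-values assume that the lone WT library varies like the KO libraries. Standard errors (SE) were obtained by dividing the fitted log2 change by the root of the F statistic. CPM used TMM scaling. Intervals are exact binomial (95%). The fit and the interval were tested on simulated data. For the fit, WT and KO counts were drawn with the same spread, so the assumption about the lone WT library was not tested. Alternatives were DESeq2 (1.42.0), median-of-ratios scaling, library size alone, FPKM, pseudocounts of 1 and 0.1, no filter, a minimum of 50 counts, fold thresholds of 1.5 and 4, the adjusted p alone, and leaving out each KO library.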

Additional observations from a re-analysis of the deposited data

How the results depend on the processing

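The 5 members were at least 2-fold lower in both KO libraries under TMM, median-of-ratios or library-size scaling and with FPKM (5 each time). At a threshold of 4-fold, 4 of them were. The same 5 at 1.5-fold, or in the remaining library with either KO library left out, follow from the main result and add no support. The median log2 change of the members was -2.67, ranged from -2.68 to -2.61 with 1 KO library left out, and from -2.68 to -2.66 under the other settings. Single members lay between -3.73 and -2.30 without the library labelled sgFLI1-2, between -3.71 and -2.14 under other scalings and FPKM (log2(FPKM + 0.1) included), and without the library labelled sgFLI1-1 from 12.9-fold (APOL4) to 3.99-fold (APOL2) lower, and between -2.79 and -2.09 on log2(FPKM + 1), where low levels are pulled towards 0. No member changed direction, which is a description only, since the members were chosen by this contrast. Without a filter on low counts edgeR called 38 genes lower and 3 higher (457 and 283 with it), 0 neighbours, and 8 pathway genes lower (17 with it). The adjusted p alone gave 2 called neighbours in place of 1. With 1 KO library left out no residual degree of freedom was left, so a 2-fold difference between WT and the remaining library was counted with no test: 1398 to 1768 lower and 1041 to 1171 higher over all genes, 4 to 6 neighbours, 16 to 18 lower pathway genes and 1 higher. No paired analysis was possible because WT had 1 library. With 1 WT library, counts of at least 82 per member limit counting error but leave the variation of WT unmeasured.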
